A study of Mus musculus with 88 samples.

Results

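The genes described here are 41 of the 54532 in the count table and encode the voltage-gated sodium, potassium and calcium channels of mouse cortex with their auxiliary subunits. They were taken by symbol, each matched through its Ensembl identifier, and comprise 7 sodium channel genes, 19 potassium channel genes, 14 calcium channel genes and Hcn2, which encodes a cation channel opened by hyperpolarisation. All 41 were expressed above the low-count filter on both sides of the brain, and 40 of them had at least 100 reads in every library used. The lowest count of any of them was 59, for Kcna3.

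Voltage-gated channels open and close with the membrane potential. Sodium channels carry the upstroke of the action potential, potassium channels repolarise the membrane and set how fast and how often a neuron fires, and calcium channels couple depolarisation to transmitter release, dendritic signalling and gene regulation. Each sodium and calcium channel has a pore-forming alpha subunit joined by auxiliary subunits that govern its gating and its delivery to the membrane, whereas potassium channels assemble from separate pore subunits.

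The study compared cortex of C57BL/6 mice of both sexes, 8 to 9 weeks old at injury, at 24 h and at 72 h after a controlled cortical impact with cortex of naive mice that had no surgery. The right somatosensory cortex was struck by a 2 mm tip to a depth of 1 mm, under isoflurane and after a craniotomy 3 mm wide, and injured mice also received buprenorphine and saline. Naive mice received none of these, and no sham-operated group was included, so injury, craniotomy, anaesthesia and analgesic cannot be told apart in any comparison with naive mice. After perfusion, a 4 mm punch was taken around the injury (ipsilateral) and at the matching contralateral site, with the right punch of naive mice called ipsilateral, and polyadenylated RNA was sequenced. The ipsilateral fits held 13 libraries from naive mice, 15 at 24 h and 14 at 72 h, and the contralateral fits 13, 15 and 15.

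Libraries came from 3 batches in the labels: A held naive and 24 h mice, B all times, and C 72 h mice only. Batch was a term in the fits of each side. The 72 h changes against naive or 24 h mice therefore rest mainly on the 72 h libraries of batch B. On the ipsilateral side these are the 4 libraries of LM2, PF1, PF2 and PM2. Batch C libraries add mainly to the estimate of spread. The 85 libraries used had 13.65 to 26.36 M counts (median 16.29 M). Both libraries of the 72 h female LF3 were left out; their mitochondrial transcripts made up 10.48% of ipsilateral and 7.8% of contralateral counts, against 2.35 to 6.73% in the libraries used. The ipsilateral library of the 72 h animal PM1 was left out because its labels disagreed on sex; it held 458 CPM (counts-per-million) of Xist and no Ddx3y counts, and the ipsilateral library labelled PF1 female, which was kept, held 57.7 CPM of Ddx3y and 0.108 CPM of Xist.

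In 11 of the 41 channel genes the ipsilateral libraries of the naive mice KF3 and KM3, which are 2 of the 4 naive mice of batch B, lay below the other 11 naive ipsilateral libraries. Kcnh7 was the extreme case, at 20.2 and 38.7 CPM in KF3 and KM3. The contralateral library of the 72 h mouse LM2 was the lowest of the 15 at that time in the same gene, at 23.8 CPM. The ipsilateral libraries of the 72 h females SF1, SF2 and SF3, of batch C, held 592 to 718 CPM of Ttr, a choroid plexus transcript, against at most 34.6 CPM in the other ipsilateral libraries, and in them 26, 27 and 31 of the channel genes lay below the lowest naive library. Such counts were not taken over all genes, so they do not set channel genes apart. Without SF1 to SF3 31 genes fell and 0 rose at 72 h on the injured side, as with them. Batch C holds 72 h mice only and batch was a term, so leaving these mice out could hardly alter that count. The fit therefore cannot show their part in the 72 h change. Calls against naive ipsilateral cortex that changed without KF3 and KM3, without LM2 or without SF1 to SF3 are named with the genes.

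The genes lie on many chromosomes, with a few neighbours among them (GRCm38/mm10 coordinates, GENCODE M21). Kcna1 (chr6:126640397-126646384, minus strand) adjoins Kcna6 (chr6:126708329-126740674, minus strand), and Kcna2 (chr3:107101146-107115005, plus strand) adjoins Kcna3 (chr3:107036169-107038070, plus strand). Scn1a (chr2:66270778-66440840), Scn2a (chr2:65620771-65767447) and Scn3a (chr2:65457118-65567627) form a cluster on chromosome 2, and Scn2b (chr9:45117782-45130070) lies beside Scn4b (chr9:45138395-45154152).

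RefSeq promoter windows on GRCm38.p6, from 250 bases before to 50 after a transcription start, were found for 32 of the 41 genes. The windows of Kcna6, which was higher at 24 h, Kcna2, which was lower at 72 h alone, and Cacna1i, which was lower at both times, are shown 5′ to 3′ with CG dinucleotides in capitals. They were picked after the values were seen, to show a gene of each pattern of calls.
Kcna6 (chr6:126740625-126740924, minus strand): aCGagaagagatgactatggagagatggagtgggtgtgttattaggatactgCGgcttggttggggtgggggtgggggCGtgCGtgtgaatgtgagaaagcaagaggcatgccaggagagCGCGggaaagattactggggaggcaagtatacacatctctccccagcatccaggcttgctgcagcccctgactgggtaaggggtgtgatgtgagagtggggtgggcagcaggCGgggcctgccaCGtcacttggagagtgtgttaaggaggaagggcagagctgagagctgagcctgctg
Kcna2 (chr3:107101317-107101616, plus strand): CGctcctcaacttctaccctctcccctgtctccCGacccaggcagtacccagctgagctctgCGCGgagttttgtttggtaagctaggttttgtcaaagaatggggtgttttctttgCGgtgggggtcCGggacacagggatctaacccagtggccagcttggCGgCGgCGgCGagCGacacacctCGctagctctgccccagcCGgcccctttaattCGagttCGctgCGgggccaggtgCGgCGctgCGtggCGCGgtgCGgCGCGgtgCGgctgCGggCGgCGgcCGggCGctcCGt
Cacna1i (chr15:80286988-80287287, plus strand): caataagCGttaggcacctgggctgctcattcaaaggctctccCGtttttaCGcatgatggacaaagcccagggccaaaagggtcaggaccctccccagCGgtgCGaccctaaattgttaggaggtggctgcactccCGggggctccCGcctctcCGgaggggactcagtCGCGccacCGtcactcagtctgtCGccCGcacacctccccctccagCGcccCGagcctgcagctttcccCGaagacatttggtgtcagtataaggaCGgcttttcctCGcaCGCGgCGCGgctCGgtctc
The Kcna6 window held 8 CG dinucleotides at 58.3% GC, the Kcna2 window 31 at 66.7% GC and the Cacna1i window 23 at 62.7% GC. Over the 49 windows of the 32 genes the median was 20 CG dinucleotides and 62.667% GC, against 13 and 56.333% over all 21263 windows. Searched on both strands, the GC box GGGCGG occurred in 46.939% of the channel windows and 46.202% of all windows. The TATA box TATAAA occurred in 6.122% and 12.599%, and CCAAT in 28.571% and 38.193%. Neither the cyclic AMP response element TGACGTCA nor the AP-1 site TGANTCA was found in a channel window, against 2.234% and 6.989% of all windows. The long RE1 motif was likewise in no channel window and in 0.047% of all windows.

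Levels in naive ipsilateral cortex spanned a wide range per kilobase of exon. Medians of 88.5 CPM per kilobase for Kcnab2, 67.4 for Cacnb3, 64.5 for Scn2b and 57.8 for Hcn2 led the order, followed by Kcna2 and, at 38.4, Kcnh3. The lowest levels on that scale were 3.91 for Scn3a, 3.78 for Kcna4 and 3.11 for Kcnb2.

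In the injured cortex most channel genes were lower than in naive cortex, fewer at 24 h and more at 72 h. At 24 h, 21 of 41 fell and 4 rose (adjusted p under 0.05 over all genes, edgeR quasi-likelihood test with batch as a term), with a median log2 fold change of -0.23; over all 19062 genes tested, 25% fell and 25.8% rose. At 72 h, 31 fell and 0 rose, with a median of -0.61, against 22.6% of all genes that fell and 25.7% that rose. The median over all genes was -0.001 at 24 h and -0.014 at 72 h. The 24 h and 72 h comparisons share the naive libraries, and 21 genes fell in both, 9 fell at 72 h alone, Cacna1d rose at 24 h and fell at 72 h, 3 rose at 24 h and were not called at 72 h, and 7 were called at neither time.

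The classes had similar medians. At 24 h, 3 of 7 sodium, 8 of 19 potassium and 9 of 14 calcium channel genes fell, with class medians of -0.23, -0.23 and -0.25. At 72 h, 5 of 7 sodium, 13 of 19 potassium and 12 of 14 calcium channel genes fell, with class medians of -0.61, -0.67 and -0.60. Hcn2 fell at both times. Within batches, 23 of the 41 genes fell and 3 rose in A and 14 fell and 2 rose in B at 24 h. Batch B, the batch with both naive and 72 h mice, has 4 ipsilateral libraries of each, and 25 genes fell within it at 72 h. The pooled 72 h change rests mainly on the same 72 h libraries, so this is not a separate check. Shares over all genes are not given beside these single-batch counts, so the counts do not set channel genes apart. The calls lost within batch B at 72 h were those of Scn1a (-0.46), Scn2a (-0.13), Kcnd2 (-0.41), Cacna1d (-0.21), Cacna2d1 (-0.36) and Cacna2d3 (-0.33). At 24 h 4 of the pooled calls were lost within batch A. Within batch B 10 were lost and 3 others changed sign without a call. Among the lost calls were those of Cacna1e (-0.17 in B), Cacnb1 (-0.14 in A) and Hcn2 (-0.21 in A). Values for the others are given with the genes. Called in A but not in the pooled fit were Scn2a (-0.45), Scn3a (-0.43), Scn3b (-0.37), Kcna2 (-0.28) and Kcnh7 (-0.94). In B the genes so called were Kcna3 (0.62), Kcnc4 (-0.42), Cacna1h (-0.45) and Cacna2d2 (-0.26). Since this is bulk tissue, fewer neurons and less channel RNA per neuron cannot be told apart.

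**Figure D1:**
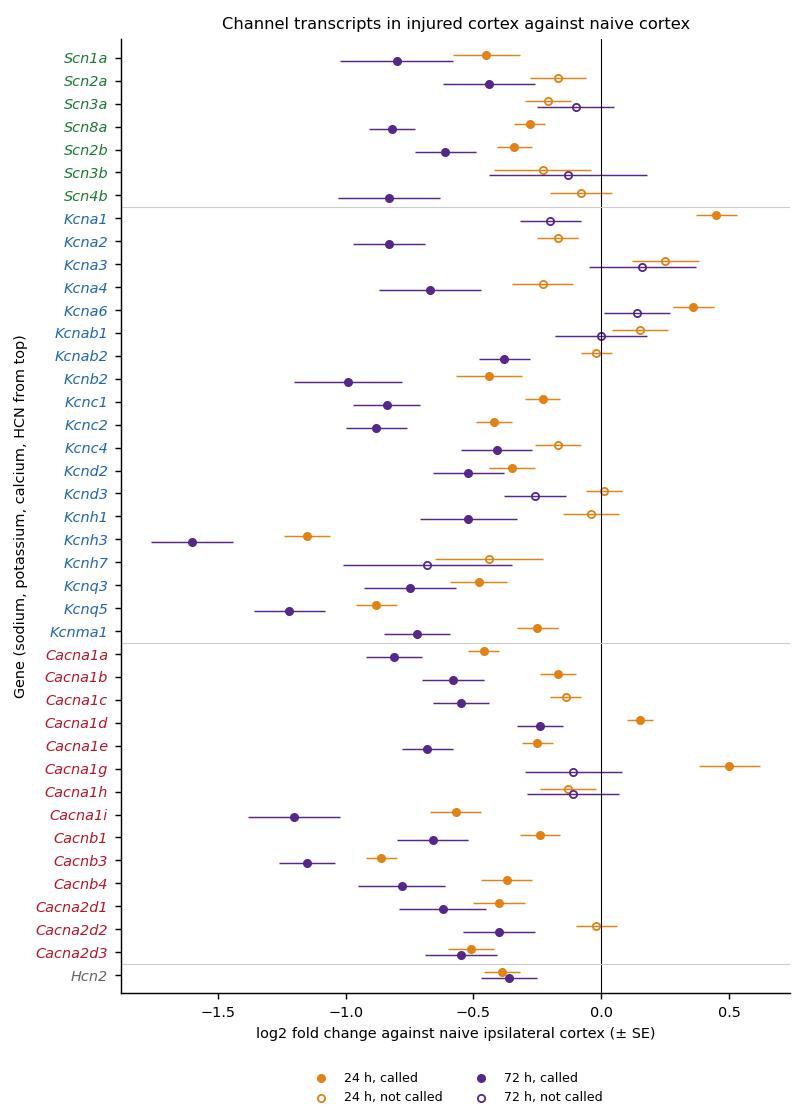
Log2 fold change against naive cortex on the ipsilateral side for each of the 41 genes at 24 h and at 72 h, with bars of 1 SE and filled points for genes that passed the test. At 24 h 21 genes fell and 4 rose; at 72 h 31 fell and 0 rose, with the usual (TMM) library scaling.

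Markers of neurons and of microglia and macrophages also differed from naive cortex, more of the neuronal ones at 72 h than at 24 h. The summed level of 12 pan-neuronal markers was 7577, 8794 and 9366 CPM (lowest, median and highest library) in naive ipsilateral cortex, 7612, 8325 and 8997 at 24 h and 4364, 6361 and 7430 at 72 h. Of these 12 genes 3 fell and 1 rose at 24 h, and 9 fell and 0 rose at 72 h, with medians of -0.10 and -0.40. Rbfox3, a nuclear protein of mature neurons, had a log2 fold change of -0.11 at 24 h (adjusted p = 0.231) and -0.74 at 72 h (adjusted p = 9.27e-06), and Snap25, a synaptic vesicle fusion protein, of -0.11 (adjusted p = 0.29) and -0.75 (adjusted p = 2.45e-05). All 8 microglia and macrophage markers rose at 72 h (median 2.12), when their sum was 656 to 1237 CPM against 220 to 288 CPM in naive cortex. The part of these markers in the channel results was not tested.

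When libraries were scaled to the pan-neuronal list instead of by the usual (TMM) factors, the median log2 fold change of all genes moved by 0.08 at 24 h and 0.39 at 72 h, to 0.08 and 0.37. On that scale the channel median was -0.15 at 24 h and -0.23 at 72 h. At 24 h the calls of Kcnc1 (-0.15), Kcnma1 (-0.17) and Cacna1b (-0.09) were lost, and Kcna3 (0.33) was called as higher. Over all genes 15.9% fell and 28.2% rose at 24 h on that scale. At 72 h 17 channel genes fell, against 6.12% of all genes, and 2 rose, Kcna3 (0.52) and Kcna6 (0.51), against 45.5% of all genes. Calls lost at 72 h were those of Scn1a, Scn2a, Kcna4, Kcnab2, Kcnc4, Kcnd2, Kcnh1, Kcnq3, Cacna1c, Cacna2d1, Cacna2d2, Cacna2d3, Cacna1d and Hcn2. Cacna1d and Hcn2, called as lower at 72 h by the usual scaling, came to 0.14 and 0.03.

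Of the sodium channel alpha subunits, Scn8a encodes the pore that drives firing at the axon initial segment and nodes of Ranvier. It was at 390, 464 and 543 CPM in naive ipsilateral cortex (lowest, median and highest library), 315, 373 and 461 at 24 h and 198, 262 and 310 at 72 h. No 72 h library reached the naive range, and 10 of the 15 libraries at 24 h lay below it. Scn8a fell at 24 h (log2 fold change -0.28 ± 0.06, SE, adjusted p = 4.36e-05) and at 72 h (-0.82 ± 0.09, adjusted p = 1.88e-09), and at 24 h the change was -0.31 within batch A and -0.25 within batch B, called in each.

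Scn1a, which encodes the main sodium channel of fast-spiking interneurons, was at 69.6, 232 and 333 CPM in naive cortex, 128, 161 and 180 at 24 h and 80.4, 112 and 145 at 72 h. The naive range overlapped the injured ranges through KF3 at 69.6 CPM and KM3 at 126 CPM; the other 11 naive libraries were all above 180 CPM. Scn1a fell at 24 h (-0.45 ± 0.13, adjusted p = 0.00395) and at 72 h (-0.80 ± 0.22, adjusted p = 0.00219). At 24 h the change was -0.77 within batch A and 0.03 within batch B, which holds KF3 and KM3, and without those 2 mice it was -0.66 at 24 h and -1.10 at 72 h, called at both times.

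Scn2a, the sodium channel of excitatory axons and dendrites, was at 152, 419 and 561 CPM in naive cortex, 297, 335 and 384 at 24 h and 168, 245 and 298 at 72 h. Its log2 fold change was -0.17 at 24 h (adjusted p = 0.198), with -0.45 within batch A, where it was called, and 0.26 within batch B, and without KF3 and KM3 it was called as lower at 24 h (-0.35, adjusted p = 0.000374). It fell at 72 h (-0.44 ± 0.18, adjusted p = 0.0397), a call that was lost without LM2 (-0.32) and kept without KF3 and KM3 (-0.70). Scn3a, abundant in the embryonic brain and low in the adult, was at 23, 48.7 and 62.8 CPM in naive cortex, 33, 37.4 and 48.6 at 24 h and 28.8, 36.8 and 43.7 at 72 h. Its change was -0.21 at 24 h (adjusted p = 0.0644) and -0.10 at 72 h (adjusted p = 0.609), and without KF3 and KM3 it was called as lower at both times (-0.35 and -0.31).

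The beta subunits, adhesion proteins that tune the gating and placement of the pore, were not all called at the same times. Scn2b was at 261, 300 and 385 CPM in naive cortex, 189, 256 and 305 at 24 h and 144, 212 and 273 at 72 h, and fell at both times (-0.34 ± 0.07, adjusted p = 0.000142, and -0.61 ± 0.12, adjusted p = 5.17e-05). Its neighbour Scn4b, which supports resurgent sodium current, was at 96.3, 139 and 184 CPM in naive cortex, 99.8, 134 and 174 at 24 h and 38.9, 76.6 and 121 at 72 h. The Scn4b change was -0.08 ± 0.12 at 24 h (adjusted p = 0.6) and -0.83 ± 0.20 at 72 h (adjusted p = 0.000612), and 72 h was lower than 24 h by a called margin (-0.75). Scn3b spread widely after injury: 10 of 15 libraries at 24 h lay below the naive range of 61.9 to 85.5 CPM and 3 above it, reaching 129 CPM, and neither time was called (-0.23 ± 0.19 and -0.13 ± 0.31).

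**Figure D2:**
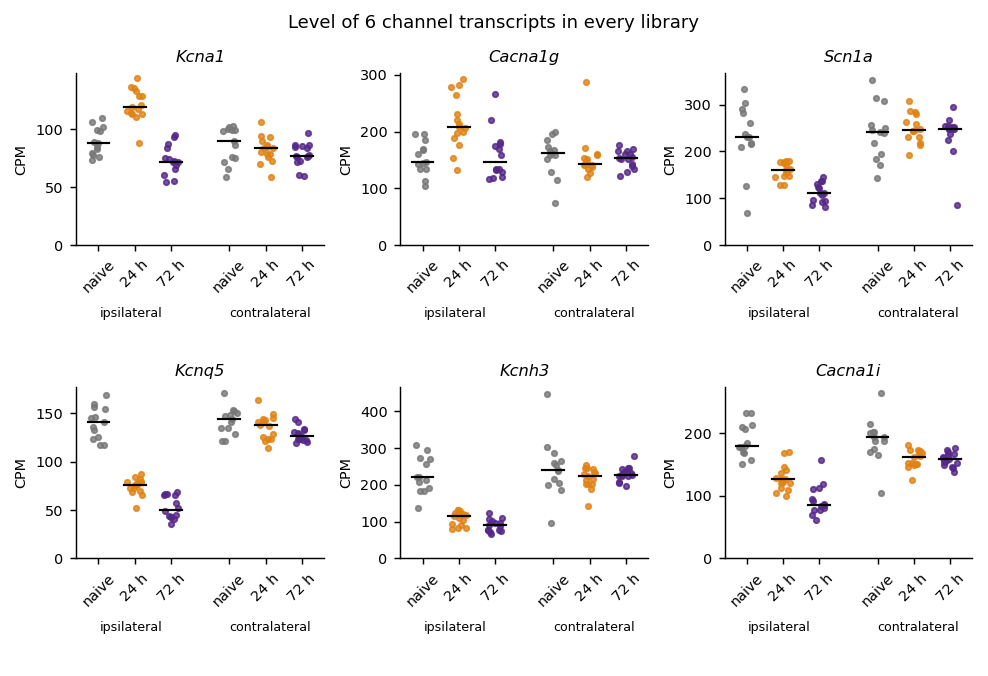
Counts-per-million in every library used, ipsilateral and contralateral, from naive mice and at 24 h and 72 h for Kcna1, Cacna1g, Scn1a, Kcnq5, Kcnh3 and Cacna1i, with a line at each median. On the ipsilateral side, Kcnh3 and Kcnq5 in every library of injured mice lay below the naive range, and 14 of 15 Kcna1 libraries at 24 h lay above it.

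The Kv1 family, low-threshold potassium channels of axons and terminals, held 2 of the 4 genes that rose at 24 h, and none of its 5 members fell then. Kcna1, whose human counterpart is mutated in episodic ataxia, was at 73.6, 88.0 and 110 CPM in naive cortex, 88.4, 119 and 144 at 24 h and 54.7, 72.2 and 95.1 at 72 h. All but 1 of the 15 libraries at 24 h lay above the naive range, while 8 of 14 at 72 h lay below it. Kcna1 rose at 24 h (0.45 ± 0.08, adjusted p = 3.48e-06), by 0.42 within batch A and 0.47 within batch B, called in each. At 72 h it was -0.20 ± 0.12 against naive (adjusted p = 0.186), and it was lower at 72 h than at 24 h (-0.65 ± 0.12, adjusted p = 3.52e-05).

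Kcna6, its neighbour and a partner in mixed Kv1 channels, was at 46.6, 62.9 and 79.5 CPM in naive cortex, 64.4, 79.4 and 114 at 24 h and 50, 69.3 and 85 at 72 h. The ranges overlapped, with 7 of 15 libraries at 24 h above the naive range. Kcna6 rose at 24 h (0.36 ± 0.08, adjusted p = 0.000249), with 0.43 within batch A, called, and 0.26 within batch B, not called. At 72 h the difference from naive was 0.14 ± 0.13 (adjusted p = 0.375).

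Kcna2, which forms the axonal low-threshold channel with Kcna1, was at 323, 489 and 580 CPM in naive cortex, 294, 387 and 507 at 24 h and 166, 236 and 293 at 72 h. At 72 h all 14 libraries lay below the naive range. Its change was -0.17 at 24 h (adjusted p = 0.0868; called without the 24 h female QF1, at -0.19, and without SF1 to SF3, at -0.18) and -0.83 ± 0.14 at 72 h (adjusted p = 3.73e-06). Kcna4, an inactivating Kv1 subunit, was at 14.6, 18.3 and 23.7 CPM in naive cortex, 10.8, 15.7 and 21.8 at 24 h and 6.83, 10.7 and 16.7 at 72 h. It had -0.23 at 24 h, not called, and fell at 72 h (-0.67 ± 0.20, adjusted p = 0.0046), although without LM2 the 72 h change was -0.45 and not called. Kcna3, known best in lymphocytes and microglia, was at 4.83, 9.07 and 13.2 CPM in naive cortex, 6.85, 9.55 and 13.6 at 24 h and 5.15, 9.77 and 11.9 at 72 h, and had 0.25 at 24 h and 0.16 at 72 h, neither called.

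The Kv beta subunits are cytoplasmic proteins that bind Kv1 channels. Kcnab2 was at 405, 494 and 687 CPM in naive cortex, 464, 519 and 654 at 24 h and 288, 415 and 489 at 72 h, and fell at 72 h alone (-0.38 ± 0.10, adjusted p = 0.00219). Kcnab1 was narrow in naive cortex (63.3 to 74.2 CPM) and wide at 24 h (51.1 to 102 CPM), with 6 of 15 libraries below and 8 above the naive range. At 72 h it was at 35.4, 55.4 and 94.6 CPM, with 8 of 14 libraries below the naive range and 1 above. The change was called at neither time (0.15 ± 0.11 and 0.00 ± 0.18), but with no batch term the 72 h change was -0.26 and called. The injured side was lower than the other in 13 of 14 mice at 72 h.

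The Kv3 genes encode fast high-threshold channels that let interneurons fire at high rates, and all 3 fell at 72 h. Kcnc2 was at 123, 142 and 167 CPM in naive cortex, 84.9, 105 and 116 at 24 h and 45, 69.9 and 92.6 at 72 h, so that every injured library lay below every naive one. It fell at 24 h (-0.42 ± 0.07, adjusted p = 3.17e-06) and at 72 h (-0.88 ± 0.12, adjusted p = 8.16e-08). Kcnc1 was at 223, 274 and 327 CPM in naive cortex, 180, 238 and 281 at 24 h and 116, 165 and 190 at 72 h, and its small fall at 24 h (-0.23 ± 0.07, adjusted p = 0.0104) was -0.12 and not called within batch A, -0.39 and called within batch B, and not called without KF3 and KM3 (-0.15). Kcnc1 fell at 72 h (-0.84 ± 0.13, adjusted p = 4.69e-07), when all 14 libraries lay below the naive range. Kcnc4 was at 64.5, 81.9 and 140 CPM in naive cortex, 65.2, 80.5 and 114 at 24 h and 54.6, 69.9 and 96.1 at 72 h, so the ranges overlapped. It had -0.17 at 24 h (adjusted p = 0.109) and -0.41 ± 0.14 at 72 h (adjusted p = 0.0171), a 72 h call that was lost without KF3 and KM3 (-0.27).

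Of the other pore subunits, Kcnb2, a slow delayed rectifier, was at 16.7, 47.2 and 63.6 CPM in naive cortex, 17.4, 28.1 and 35 at 24 h and 11.7, 16.7 and 20.1 at 72 h. Kcnb2 fell at 24 h (-0.44 ± 0.13, adjusted p = 0.00334; -0.71 within batch A and -0.01 within batch B) and at 72 h (-0.99 ± 0.21, adjusted p = 0.000177). The Kv4 gene Kcnd2, the main dendritic A-type channel, was at 81.9, 100 and 121 CPM in naive cortex, 58.6, 78.3 and 107 at 24 h and 36.1, 64 and 88.4 at 72 h, and fell at both times (-0.35 ± 0.09 and -0.52 ± 0.14), with -0.20 and no call within batch B at 24 h. Its relative Kcnd3 was at 65.3, 77.5 and 89 CPM in naive cortex, 59.2, 76.3 and 92 at 24 h and 49.3, 56.8 and 84.3 at 72 h. It had 0.01 at 24 h (adjusted p = 0.945) and -0.26 at 72 h (adjusted p = 0.0661), with 11 of 14 libraries at 72 h below the naive range, and without PF1 it was called as lower at 72 h (-0.35).

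The 24 h and 72 h changes furthest from 0 among the 41 genes were those of Kcnh3, a forebrain channel of the ether-a-go-go family. It was at 138, 221 and 308 CPM in naive cortex, 79.4, 115 and 132 at 24 h and 65.3, 89.6 and 123 at 72 h. No injured library reached the naive range. Kcnh3 fell to 0.45 times its naive level at 24 h (-1.15 ± 0.09, adjusted p = 8.37e-14; -1.03 within batch A and -1.32 within batch B, called in each) and to 0.331 times at 72 h (-1.60 ± 0.16, adjusted p = 4.74e-11). Kcnh1 of the same family was at 129, 156 and 185 CPM in naive cortex, 115, 158 and 214 at 24 h and 62.5, 106 and 157 at 72 h, with 12 of 14 libraries at 72 h below the naive range. It had -0.04 at 24 h (adjusted p = 0.815) and fell at 72 h (-0.52 ± 0.19, adjusted p = 0.0225), a call lost without KF3 and KM3 (-0.40).

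Kcnh7, another ether-a-go-go gene, was at 20.2, 226 and 315 CPM in naive cortex, 90, 123 and 160 at 24 h and 57.5, 81.7 and 113 at 72 h. It was called at neither time (-0.44 ± 0.21, adjusted p = 0.0739, and -0.68 ± 0.33, adjusted p = 0.0903). Without KF3 and KM3 it was called as lower at both times, at -0.77 and -1.15. Within batch A the 24 h change was -0.94, and within batch B it was 0.33.

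The Kv7 genes encode the M-current, which restrains repetitive firing. Kcnq5 was at 117, 141 and 169 CPM in naive cortex, 52.6, 76.4 and 87.6 at 24 h and 35.9, 50.4 and 69.1 at 72 h, with every injured library below every naive one. It fell to 0.545 times the naive level at 24 h (-0.88 ± 0.08, adjusted p = 8.63e-12) and to 0.428 times at 72 h (-1.22 ± 0.14, adjusted p = 1.68e-09). Kcnq3 was at 90.4, 278 and 361 CPM in naive cortex, 135, 164 and 201 at 24 h and 88.7, 122 and 156 at 72 h. It fell at both times (-0.48 ± 0.11, adjusted p = 0.000196, and -0.75 ± 0.18, adjusted p = 0.000449), with -0.76 within batch A and -0.05 within batch B at 24 h. Kcnma1, the large-conductance channel opened by calcium and voltage together, was at 141, 305 and 372 CPM in naive cortex, 190, 227 and 273 at 24 h and 118, 147 and 181 at 72 h. It fell at both times as well (-0.25 ± 0.08 and -0.72 ± 0.13), with -0.41 within batch A and 0.00 within batch B at 24 h.

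Among the high-voltage calcium channels, Cacna1a, the P/Q-type pore that triggers transmitter release, was at 240, 308 and 380 CPM in naive cortex, 172, 209 and 273 at 24 h and 130, 170 and 216 at 72 h. At 72 h all 14 libraries lay below the naive range, as did 10 of 15 at 24 h. Cacna1a fell at 24 h (-0.46 ± 0.06, adjusted p = 1.06e-07) and at 72 h (-0.81 ± 0.11, adjusted p = 6.76e-08). The N-type gene Cacna1b, whose channel also serves transmitter release, was at 143, 176 and 219 CPM in naive cortex, 125, 158 and 190 at 24 h and 86.5, 120 and 143 at 72 h. It fell at both times (-0.17 ± 0.07, adjusted p = 0.0427, and -0.58 ± 0.12, adjusted p = 6.05e-05), but the 24 h call did not hold in DESeq2 (-0.16, adjusted p = 0.0662), with RLE scaling (-0.16), with no filter on low counts (-0.16), with LF3 kept (-0.16), without KF3 and KM3 (-0.15), within batch B (-0.12) or on the pan-neuronal scale (-0.09). The R-type gene Cacna1e fell at both times too (-0.25 ± 0.06, adjusted p = 0.000528, and -0.68 ± 0.10, adjusted p = 3.75e-07), and was at 254, 393 and 499 CPM in naive cortex, 226, 276 and 377 at 24 h and 157, 203 and 252 at 72 h, with all 14 libraries at 72 h below the naive range.

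The L-type genes Cacna1c and Cacna1d, whose channels couple activity to transcription, were called differently at 24 h. Cacna1c was at 83.5, 123 and 151 CPM in naive cortex, 74.9, 107 and 138 at 24 h and 66.9, 74.2 and 94.8 at 72 h; it had -0.14 at 24 h (adjusted p = 0.0602; -0.15 and called without SF1 to SF3) and fell at 72 h (-0.55 ± 0.11, adjusted p = 3.87e-05). Cacna1d was at 51.4, 79 and 85.2 CPM in naive cortex, 61.8, 73.3 and 110 at 24 h and 45.9, 59.1 and 68.6 at 72 h. Pooled over batches its median was lower at 24 h than in naive cortex, whereas the fit with batch as a term gave a rise (0.15 ± 0.05, adjusted p = 0.017), made up of 0.12 within batch A and 0.18 within batch B, neither called. Cacna1d fell at 72 h (-0.24 ± 0.09, adjusted p = 0.0171), a call lost without KF3 and KM3 (-0.22).

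The low-voltage, or T-type, genes, which support burst firing, also differed in their calls. Cacna1g was at 105, 146 and 196 CPM in naive cortex, 133, 208 and 292 at 24 h and 117, 147 and 267 at 72 h, with 11 of 15 libraries at 24 h above the naive range. It rose 1.42 times at 24 h (0.50 ± 0.12, adjusted p = 0.000442; 0.60 within batch A, called, and 0.35 within batch B, not called), and at 72 h the difference was -0.11 ± 0.19 (adjusted p = 0.678). Cacna1i was at 151, 180 and 232 CPM in naive cortex, 99.2, 127 and 170 at 24 h and 62.2, 86 and 157 at 72 h, and fell at 24 h (-0.57 ± 0.10, adjusted p = 1.22e-05) and at 72 h, to 0.436 times the naive level (-1.20 ± 0.18, adjusted p = 4.00e-07). Cacna1h had -0.13 at 24 h (adjusted p = 0.307) and -0.11 at 72 h (adjusted p = 0.635), and its levels of 35.3 to 62.5 CPM in naive cortex, 30.8 to 73.4 at 24 h and 40.7 to 64 at 72 h overlapped.

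All 3 calcium channel beta subunits, which chaperone the pore to the membrane, fell at both times. Cacnb3 was at 188, 270 and 361 CPM in naive cortex, 118, 161 and 194 at 24 h and 116, 144 and 160 at 72 h. Of the 15 libraries at 24 h, 14 lay below the naive range, as did all 14 at 72 h. Cacnb3 fell at 24 h (-0.86 ± 0.06, adjusted p = 1.53e-14) and at 72 h (-1.15 ± 0.11, adjusted p = 1.69e-11). Cacnb4 was at 131, 319 and 432 CPM in naive cortex, 188, 235 and 271 at 24 h and 108, 145 and 199 at 72 h, and fell at both times (-0.37 ± 0.10 and -0.78 ± 0.17). Cacnb1 was at 93.1, 144 and 207 CPM in naive cortex, 111, 129 and 147 at 24 h and 67, 98.1 and 126 at 72 h, and fell at both times too (-0.24 ± 0.08 and -0.66 ± 0.14). At 24 h Cacnb4 changed by -0.61 within batch A and 0.01 within batch B, and the Cacnb1 call was lost without KF3 and KM3 (-0.15).

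The alpha2delta subunits raise the number of calcium channels at the membrane, and Cacna2d1 encodes the target of gabapentin. They fell in 2 of 3 cases at 24 h and in all 3 at 72 h. Cacna2d1 was at 129, 310 and 405 CPM in naive cortex, 177, 212 and 242 at 24 h and 122, 168 and 218 at 72 h, and fell at both times (-0.40 ± 0.10, adjusted p = 0.00109, and -0.62 ± 0.17, adjusted p = 0.00201), with -0.64 within batch A and -0.02 within batch B at 24 h, and -0.23 and no call at 72 h with LF3 kept. Cacna2d3 was at 77, 126 and 148 CPM in naive cortex, 68.3, 84.1 and 101 at 24 h and 50.3, 75.1 and 94 at 72 h, and fell at both times (-0.51 ± 0.09 and -0.55 ± 0.14). Its 24 h change was -0.71 within batch A and -0.20 within batch B. Cacna2d2 was at 25.9, 35.9 and 45.2 CPM in naive cortex, 29.7, 36 and 42.8 at 24 h and 24.1, 29.3 and 42.9 at 72 h. It had -0.02 at 24 h (adjusted p = 0.824) and -0.40 ± 0.14 at 72 h (adjusted p = 0.0128), the 72 h call being lost without LM2 and without KF3 and KM3.

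Hcn2, which carries the hyperpolarisation-activated pacemaker current, was at 129, 185 and 271 CPM in naive cortex, 123, 157 and 172 at 24 h and 131, 157 and 200 at 72 h, and fell at both times (-0.39 ± 0.07 and -0.36 ± 0.11), though not by a called margin at 72 h without KF3 and KM3 (-0.22).

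Between the injured times, 23 of the 41 genes were lower at 72 h than at 24 h and 0 were higher, with a median of -0.36, against 14.7% of all genes lower and 18.5% higher. Without LM2 the number was 15, and on the pan-neuronal scale 6 were lower and 2 higher, against 2.43% and 36.6% of all genes. Batch B alone, the batch with libraries at both times, gave 22 lower, from mainly the same 72 h libraries that the pooled contrast rests on. No share over all genes is given beside that batch B count. Per library, 8 to 14 of the 41 genes lay below the naive range at 24 h and 16 to 31 at 72 h. The share of all genes below that range was not taken, so these counts do not set channel genes apart.

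**Figure D3:**
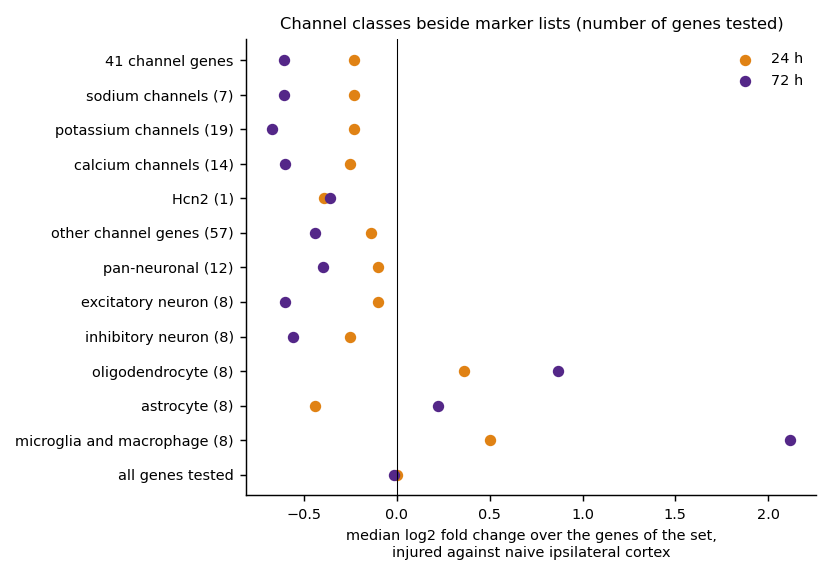
Median log2 fold change against naive cortex on the ipsilateral side, at 24 h and 72 h, for the channel classes and for the lists of cell type markers. Sodium, potassium and calcium channel genes lie at -0.23, -0.23 and -0.25 at 24 h and at -0.61, -0.67 and -0.60 at 72 h; on the pan-neuronal scale the median of all 41 genes was -0.15 and -0.23.

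In the contralateral cortex few channel genes differed from naive mice. At 24 h 5 fell and 1 rose, with a median of 0.00, against 4.07% of all 18429 genes that fell and 2.39% that rose. Those that fell were Cacnb3 (-0.30 ± 0.08), Cacna2d3 (-0.29 ± 0.05, adjusted p = 0.000237), Cacna1i (-0.26 ± 0.07), Hcn2 (-0.24 ± 0.08) and Cacna1a (-0.21 ± 0.06), and Kcna3 rose (0.39 ± 0.10, adjusted p = 0.0116). Hcn2 was not called without SF1 to SF3, without QF1, without KF3 and KM3 or with LF3 kept. Its call was also lost with no batch term, with no filter on low counts and within each batch (-0.10 in A and -0.39 in B). The Kcna3 call was lost within batch A (0.35), within batch B (0.46) and with no batch term (0.27). Without KF3 and KM3 2 fell and 1 rose, and within batch A Cacna2d3 alone was called (-0.35). At 72 h none of the 41 passed the test in edgeR or in DESeq2, against 0% of all genes called lower and 0.0922% higher. This contrast rests mainly on the 72 h libraries of batch B, LM2 among them, so missing calls do not show equal levels. With no batch term 10 of the 41 were called at 72 h, but batch and time cannot be told apart in that fit. At an unadjusted p under 0.05 there were 9 of the 41, against 5.84% of all genes. Those 9 were Cacna1a, Cacna1i, Cacnb3, Hcn2, Kcna3, Kcnab2, Kcnc1, Kcnh3 and Scn4b. Between 72 h and 24 h none was called either in edgeR or in DESeq2, against 0.0326% of all genes called lower and 0.212% higher, and 2 of the 41 were at an unadjusted p under 0.05, against 6.98% of all genes. The mean log2 CPM of the 41 genes had group medians of 7.13 in naive mice, 7.07 at 24 h and 7.07 at 72 h on the contralateral side, and of 7.12, 6.86 and 6.47 on the ipsilateral side.

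Within animals, the 2 sides were compared with each mouse as its own control. The craniotomy was made on the struck side, so impact and craniotomy cannot be told apart in this comparison either. In naive mice none of the 41 genes differed between sides in edgeR or in DESeq2, and 0 had an unadjusted p under 0.05; over all 19902 genes 0% were called, with 745 at an unadjusted p under 0.05. At 24 h 24 were lower on the ipsilateral side and 3 were higher (median -0.25), against 25.6% and 26% of all genes. At 72 h 36 were lower and 0 higher (median -0.60), against 30.6% lower and 33.6% higher over all genes. The numbers were the same without KF3 and KM3, which was bound to be nearly so at 24 h and 72 h. Each time had its own side effect, so naive mice enter those ratios only through the shared spread and scaling. The PF1 libraries differ in sex transcripts (contralateral 489 CPM of Xist and no Ddx3y counts), so this pair cannot be taken as the same animal; without PF1 36 were again lower and 0 higher at 72 h. Within batches, 23 were lower and 4 higher in A and 21 lower and 3 higher in B at 24 h, and 25 were lower in B and 36 in C at 72 h. These single-batch counts have no shares over all genes beside them, so they do not set channel genes apart.

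**Figure D4:**
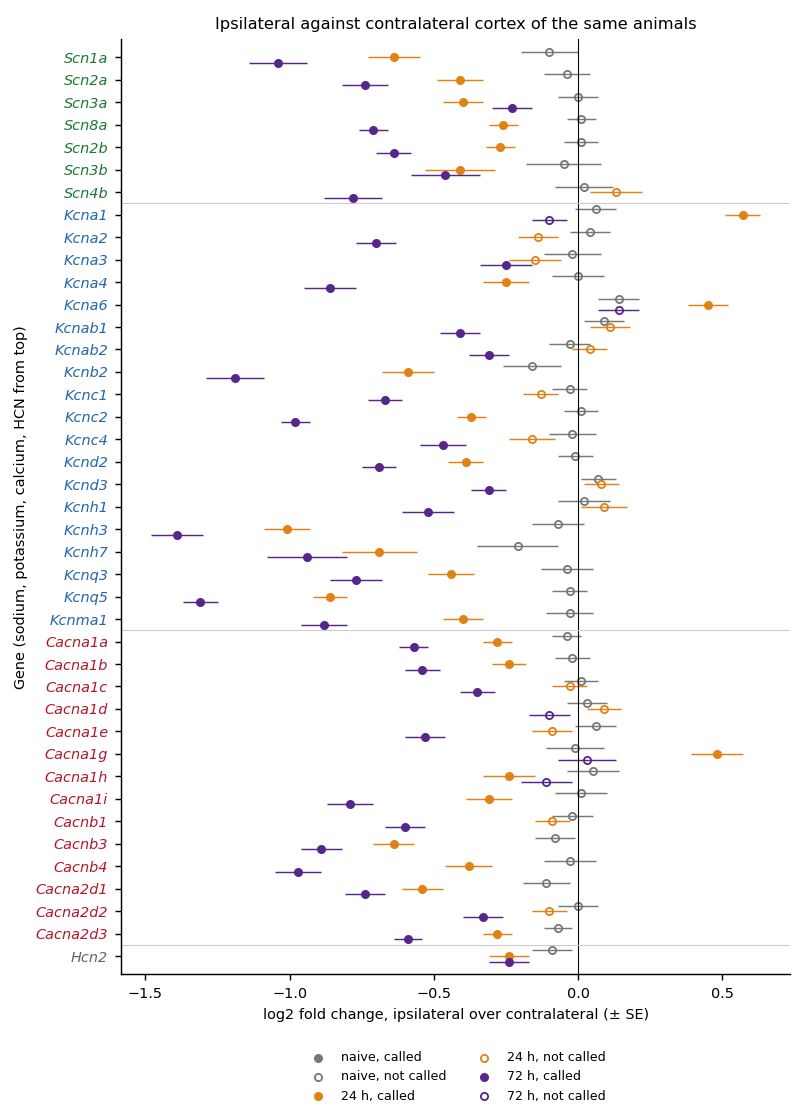
Log2 ratio of ipsilateral to contralateral level within animals for each of the 41 genes, in naive mice and at 24 h and 72 h, with bars of 1 SE and filled points for genes that passed the test. None passed in naive mice, 27 passed at 24 h (24 lower, 3 higher) and 36 at 72 h, all of them lower.

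Several sodium and potassium channel genes were lower on the injured side in nearly every mouse. Scn1a was lower on the injured side in 15 of 15 mice at 24 h (-0.64 ± 0.09, adjusted p = 9.98e-08) and in 13 of 14 at 72 h (-1.04 ± 0.10, adjusted p = 7.13e-13), and at 24 h the ratio was -0.66 within batch A and -0.62 within batch B, called in each. Scn2a (-0.41 and -0.74) and Kcnh7 (-0.69 ± 0.13 and -0.94 ± 0.14) were likewise lower in 15 of 15 mice at 24 h and 13 of 14 at 72 h. Scn3a (-0.40 and -0.23) and Scn3b (-0.41 ± 0.12 and -0.46 ± 0.12) were called as lower at both times. Scn3a was lower in 15 of 15 mice at 24 h and 13 of 14 at 72 h, but Scn3b in 11 of 15 and 11 of 14. Within batch B the Scn3b calls were lost at both times (-0.31 and -0.17). The 72 h calls of Scn3a (-0.00) and Kcnh7 (-0.40) were lost there too. Kcnh7, Scn3a and Scn3b had been called at neither time against naive cortex, and Scn2a at 72 h alone.

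Of the 41 genes, Kcnq5 had the smallest adjusted p of the side comparison at both times (-0.86 ± 0.06, adjusted p = 4.40e-17, and -1.31 ± 0.06, adjusted p = 4.15e-23). Kcnh3 was lower in 15 of 15 mice at 24 h (-1.01 ± 0.08, adjusted p = 1.57e-14) and in 14 of 14 at 72 h (-1.39 ± 0.09, adjusted p = 8.91e-19). Kcnc2 was at -0.37 at 24 h and -0.98 ± 0.05 at 72 h (adjusted p = 2.88e-20), Kcnb2 at -0.59 and -1.19 ± 0.10, and Cacnb3 at -0.64 and -0.89. Cacna1i had -0.31 and -0.79 ± 0.08 between sides, beside the -0.57 and -1.20 against naive cortex.

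The 3 genes higher on the injured side at 24 h were Kcna1, Kcna6 and Cacna1g. Kcna1 was higher in 15 of 15 mice (0.57 ± 0.06, adjusted p = 7.12e-11; 0.50 within batch A and 0.65 within batch B), with contralateral medians of 89.8 CPM in naive mice, 83.7 at 24 h and 77.3 at 72 h. Kcna6 was higher in 15 of 15 mice (0.45 ± 0.07, adjusted p = 1.30e-07) and Cacna1g in 13 of 15 (0.48 ± 0.09; 0.63 within batch A and 0.37 within batch B, called in each). At 72 h the ratios of all 3 were not called, at -0.10, 0.14 and 0.03. Cacna1d, which had risen against naive cortex, had a side ratio of 0.09 at 24 h and -0.10 at 72 h, neither called.

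The difference between times in the side ratio was tested directly. Against naive mice, 20 genes had a lower ratio at 24 h and 3 a higher one (17% and 18.6% of all genes), and 33 had a lower ratio at 72 h and 0 a higher one (23.8% and 27.8%). The ratio was lower at 72 h than at 24 h for 33 genes and higher for 0 (17.7% and 21.8% of all genes), Scn4b having the difference furthest from 0 among those whose ratio changed sign (-0.91). These counts were smaller within batch B alone, which holds 4 naive and 4 of the 72 h ipsilateral libraries, at 4, 15 and 9 genes lower. There 1 gene had a higher ratio at 24 h against naive. Over the 19172 genes tested in that fit, 2837, 5014 and 3049 were called in either direction. The batch B count at 24 h against naive therefore does not set channel genes apart from all genes. Without SF1 to SF3 the count between 72 h and 24 h was 24.

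No channel gene passed the test of whether females and males differed in their response to injury. At 24 h 0 of 41 had an unadjusted p under 0.05, with differences (female minus male log2 fold change) of -0.23 to 0.37. At 72 h the differences were -0.33 to 0.32 and Kcna1 alone had an unadjusted p under 0.05 (0.32 ± 0.15, p = 0.0366 unadjusted, adjusted p = 1), with -0.04 ± 0.14 in females and -0.36 ± 0.15 in males. The Kcnh3 change at 24 h was -1.23 for females and -1.07 for males, and at 72 h it was -1.55 and -1.64. Kcnq5 gave -0.92 for females and -0.84 for males at 24 h, and -1.12 and -1.33 at 72 h, and Cacnb3 gave -0.83 and -0.89 at 24 h and -1.10 and -1.19 at 72 h. At 24 h Kcna1 was at 0.53 in females and 0.37 in males, and Cacna1g at 0.50 and 0.51. Without PF1, whose ipsilateral library goes against its label, the Kcna1 difference at 72 h was 0.27 and again no gene of the 41 was called. Over all genes 0% were called in edgeR, against 6 genes at 24 h and 1 at 72 h in DESeq2, and a p that misses the threshold does not show that the sexes respond alike.

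**Figure D5:**
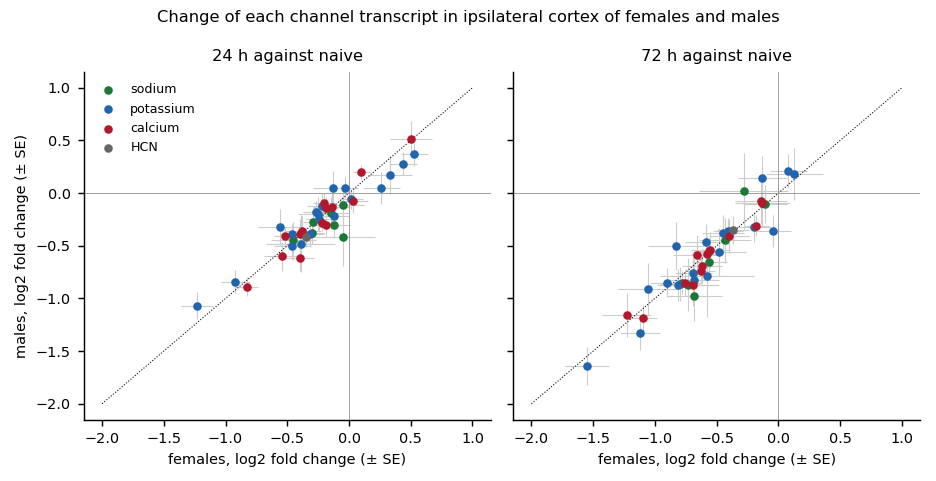
Log2 fold change against naive cortex on the ipsilateral side in females (horizontal axis) and in males (vertical axis) for the 41 genes, at 24 h and at 72 h. The female minus male differences ran over -0.23 to 0.37 at 24 h and -0.33 to 0.32 at 72 h.

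Other ion channel genes, a list of 71 of which 57 were tested, were lower more often than higher as well, with 24 that fell and 11 that rose at 24 h (median -0.14) and 30 that fell and 8 that rose at 72 h (median -0.44). Kcnip2, an accessory subunit of Kv4 channels, fell at 24 h (-1.59 ± 0.11, adjusted p = 4.81e-15), as did Kcnh4 (-1.37 ± 0.16) and Cacng3 (-1.25 ± 0.10), which encodes an AMPA receptor auxiliary protein. At 72 h Kcnh4 (-2.18 ± 0.30), Kcng3 (-1.94 ± 0.44) and Kcnv1 (-1.76 ± 0.23), the last pair encoding silent subunits that modify Kv2 channels, fell furthest. Those that rose were Cacng5, another AMPA receptor auxiliary protein (2.41 ± 0.12 at 24 h, adjusted p = 1.23e-19, and 2.73 ± 0.17 at 72 h), Hvcn1, a proton channel of microglia and other immune cells (1.01 ± 0.21 and 3.05 ± 0.29), and Kcnq1, the repolarising channel of heart (1.11 ± 0.22 and 1.39 ± 0.33).

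The marker lists for other cells and regions differed in direction. Inhibitory neuron markers fell in 6 of 8 cases at 24 h (median -0.25) and 7 of 8 at 72 h (median -0.56), and their summed level was 805 to 937 CPM in naive cortex, 664 to 953 at 24 h and 340 to 778 at 72 h. Excitatory neuron markers fell in 3 of 8 cases and rose in 1 at 24 h (median -0.10), and fell in 5 at 72 h (median -0.60). Oligodendrocyte markers rose in 4 of 8 cases at 24 h (median 0.36) and 6 of 8 at 72 h (median 0.87). Astrocyte markers fell in 5 of 8 and rose in 2 at 24 h (median -0.44), and rose in 4 and fell in 2 at 72 h (median 0.22), with Gfap at a median of 87.8 CPM in naive cortex, 1416 at 24 h and 2924 at 72 h.

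Markers of neighbouring regions differed in direction too. Striatal markers rose in 5 of 6 cases at 24 h (median 0.94) and 4 of 6 at 72 h, and their sum was 68 to 174 CPM in naive cortex, 194 to 365 at 24 h and 111 to 325 at 72 h. Hippocampal markers rose in 4 of 6 cases at 24 h (median 0.96) and 6 of 6 at 72 h (median 1.55). Precursors of oligodendrocytes fell in 4 of 4 markers at 24 h and rose in 4 of 4 at 72 h, endothelial markers rose in 4 of 6 at 72 h (median 1.09), smooth muscle and pericyte markers rose in 4 of 5 at 72 h (median 0.51) and thalamic markers rose in 2 and fell in 2 of 5 cases at 24 h (median -0.18) and rose in 2 and fell in 1 at 72 h (median 0.29). Of 5 T cell markers 1 passed the low-count filter and it was not called, and Cd3d was at 0 in 30 of the 42 ipsilateral libraries. The part of these lists in the channel results was not tested.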

How the data were processed

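Gene counts, deposited by the authors as whole-number counts per Ensembl gene and not normalized, were used for 54532 genes in 88 libraries of 44 mice; 54409 identifiers matched a symbol. The submitters' processing notes name the aligner HISAT2 2.0.5 and the mm10 build. How reads were counted, with which annotation and strand setting, is not given in the sources used here, so overlapping and antisense genes may share reads. From the counts, edgeR 4.0.16 (R 4.3.3, limma 3.58.1) was run for each side: its standard low-count filter, TMM scaling, a quasi-likelihood F test with a term for each sex and time plus batch, and Benjamini-Hochberg adjustment over all genes tested, with calls at an adjusted p under 0.05. Changes after injury are the mean of the female and male contrasts. Sides were compared in 84 libraries of 42 mice with the animal as a block, because the labels give both punches of each animal; the deviations of the 2 sides correlated at a median of 0.139 (-0.308 to 0.719). Counts-per-million (CPM) are on TMM-scaled library sizes and are not batch corrected, so a pooled median can differ in direction from the fitted change. DESeq2 1.42.0 was an alternative. Fits were checked on simulated counts. Each library is a separate animal within its side, and no 2 libraries of a group agreed within counting noise.

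The 41 genes, the marker lists and the list of other channel genes were chosen with earlier results of these data known, so their counts are descriptions and no test was made over a list. All 41 are named; of the other channel genes, up to 3 that rose and 3 that fell furthest are named among those called at an average log2 CPM of at least 1.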

Additional observations from a re-analysis of the deposited data

Results flagged for a closer look

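The ratio of ipsilateral to contralateral level differed between times by a test of the difference itself (edgeR, animal as block): 33 of the 41 genes at 72 h against 24 h, 23 at 24 h against naive and 33 at 72 h against naive. Among those that differed between 72 h and 24 h, 6 had ratios above 0 at 24 h and below 0 at 72 h: Scn4b (difference of log2 ratios -0.91), Kcna1 (-0.67), Kcnh1 (-0.61), Kcnab1 (-0.52), Kcnd3 (-0.39) and Kcnab2 (-0.36). Most of these ratios did not pass the test at 24 h on their own; Kcna1 did.

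Libraries used in no comparison also held low channel levels. Of the 41 genes, 26 in the ipsilateral and 23 in the contralateral library of the 72 h mouse LF3, and 21 in the ipsilateral library of the 72 h animal PM1, lay below the lowest naive library of the same side. Among the libraries used, the number at 72 h was 16 to 31 on the ipsilateral side and at most 11 on the contralateral side. No share over all genes was taken beside these counts.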

How the results depend on the processing

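Alternatives added after the data were seen left out SF1 to SF3, QF1, LM2 or KF3 and KM3, or took single batches for the sides. Ipsilateral 24 h: 2 channel genes rose within batch B (4 in the pooled fit), where Scn1a (0.03), Kcnma1 (0.00) and Cacnb4 (0.01) changed sign. Ipsilateral 72 h: on the pan-neuronal scale 17 fell and 2 rose (31 and 0), with Cacna1d at 0.14 and Hcn2 at 0.03; 1 rose with LF3 kept; Kcnab1 came to -0.26 with no batch term. Ipsilateral 72 h against 24 h: 15 fell without LM2, and 6 fell and 2 rose on the pan-neuronal scale (23 and 0), with Cacnb3 at 0.03; over all genes 10691 were called with no batch term (6338). Contralateral 24 h (5 fell, 1 rose): 2 fell without KF3 and KM3, 1 with LF3 kept, 1 in batch A and 3 with no batch term; 3 rose without LM2, and 0 rose in batch A, in batch B or with no batch term; over all genes 388 were called with LF3 kept and 202 in batch A (1190). Contralateral 72 h: with no batch term 9 fell and 1 rose (0 and 0); over all genes (17) the count was 39 in DESeq2, 11 without KF3 and KM3, 48 with LF3 kept, 29 without LM2, 33 without QF1, 5 in batch B and 1910 with no batch term. Contralateral 72 h against 24 h, all genes (45): 85 in DESeq2, 1698 with LF3 kept, 25 without PF1, 28 in batch B and 881 with no batch term. Sides: with no filter 44 genes were called in naive mice (0); at 72 h 1 channel gene was higher without SF1 to SF3, and 7860 genes were called in batch B (12765). Difference of sides, 24 h against naive: within batch B 4 fell and 1 rose (20 and 3), with Kcnh7 and Cacna2d3 at 0.03, and over all genes 4462 were called in batch A and 2837 in batch B (7070). Difference of sides, 72 h against naive: 15 fell in batch B (33), with Kcnh7 at 0.29, and 5014 genes were called (10274). Difference of sides, 72 h against 24 h: 9 fell in batch B (33), and 3049 genes were called (7866). Sex by injury, all genes: DESeq2 called 6 at 24 h and 1 at 72 h (0). Fewer samples enter each single-batch fit; otherwise the cause was not tested. Without the animal as a block, side calls were lost for Cacna1h at 24 h (-0.21) and Kcna3 at 72 h (-0.23), and side differences for Kcnh7 (-0.59), Cacna1i (-0.29) and Cacna2d3 (-0.21) at 24 h, Scn3b (-0.33) at 72 h, and Kcnc4 (-0.27), Cacnb3 (-0.24) and Cacna2d2 (-0.22) between 72 h and 24 h. Batch A holds no 72 h mice and batch C no others, so those contrasts gave no value there.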
